A study of Mus musculus with 21 samples.

Results

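Liver gene expression 21 days after an antisense oligonucleotide against microRNA-122 was compared with that of saline-dosed mice. The comparison was chosen by the sample titles: the 3 treated and the 3 saline livers of day 23 in the array set called p0621, which are 6 of the 21 arrays of the series. The mice were female NMRI, an outbred stock. Treated mice had received SPC3372, an LNA-antimiR against microRNA-122, at 25 mg per kg on day 2, and control mice had received saline on the same day. All 6 livers were collected on day 23, and both groups were hybridised in 1 array set. The treated mice were numbered 36, 37 and 38 and the saline mice 31, 32 and 33 in the labels, and each value below is given in that order. The treated mice were also hybridised in the array set called p0617. Those repeat arrays are shown beside some values and entered neither the means nor the test. Days 3 and 9, which fall 1 and 7 days after the dose, are used for comparison and had the same treatments, with 3 treated and 3 saline mice each, all in p0617. The labels describe the replicates as biological, and the whole liver was profiled, so each value mixes all of its cell types.

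MicroRNA-122 is the dominant microRNA of hepatocytes. It pairs through its seed with the 3' untranslated regions of messenger RNAs, which lowers their stability and translation. Its loss or inhibition in liver is known to raise such targets directly and to alter lipid metabolism, in particular by lowering plasma cholesterol. An LNA-antimiR is a short oligonucleotide with locked nucleic acid bases that binds the mature microRNA and keeps it from its targets. The level of microRNA-122 itself was not analysed here.

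Values are log2 expression levels that the authors made with RMA, and a difference of 1 is a 2-fold change. The 6 arrays had medians from 4.757 to 4.795. They correlated over all probe sets at 0.9933 to 0.9941 among treated mice, at 0.9923 to 0.9942 among saline mice and at 0.9903 to 0.9939 between the groups. Alb, the albumin gene and a defining hepatocyte marker, lay at 14.89, 14.88 and 14.93 in treated and at 14.81, 14.84 and 14.82 in saline livers. RNA integrity was read from the control probe sets for beta-actin, whose 3' minus 5' log2 level was 1.15 ± 0.156 in treated and 1.16 ± 0.040 in saline livers (SD, n = 3 each). That of Gapdh was 0.028 ± 0.025 and 0.115 ± 0.083.

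At day 23 few genes differed, and most differences were small. Of 18193 genes 70 passed the limma test at an adjusted p under 0.05 (0.385%), 34 of them higher (0.187%) and 36 lower (0.198%) in treated liver. The 34 increases ran from 0.38 to 1.45 on the log2 scale with a median of 0.55, and 3 of them reached 2-fold. The 36 decreases ran from -1.11 to -0.35 with a median of -0.50, and 2 of them reached 2-fold. Over all genes the median difference was -0.02, and 13.9% of genes had an unadjusted p under 0.05. A further 89 genes had an adjusted p from 0.05 to 0.06, 41 higher and 48 lower.

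The calls depended on a spread shared by all 6 groups of the series. A limma fit on the 6 arrays of day 23 alone made 0 calls (2372 genes at an unadjusted p under 0.05). The count was 22, 3 and 6 without treated replicates 1, 2 and 3, and 72, 5 and 13 without control replicates 1, 2 and 3. Ppm1m was the only gene whose call held without any 1 array. Each of the other 69 calls ended in at least 1 of those 6 fits. The direction of the 70 genes could not change in any of these fits, because their treated and saline arrays did not overlap.

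**Figure D1:**
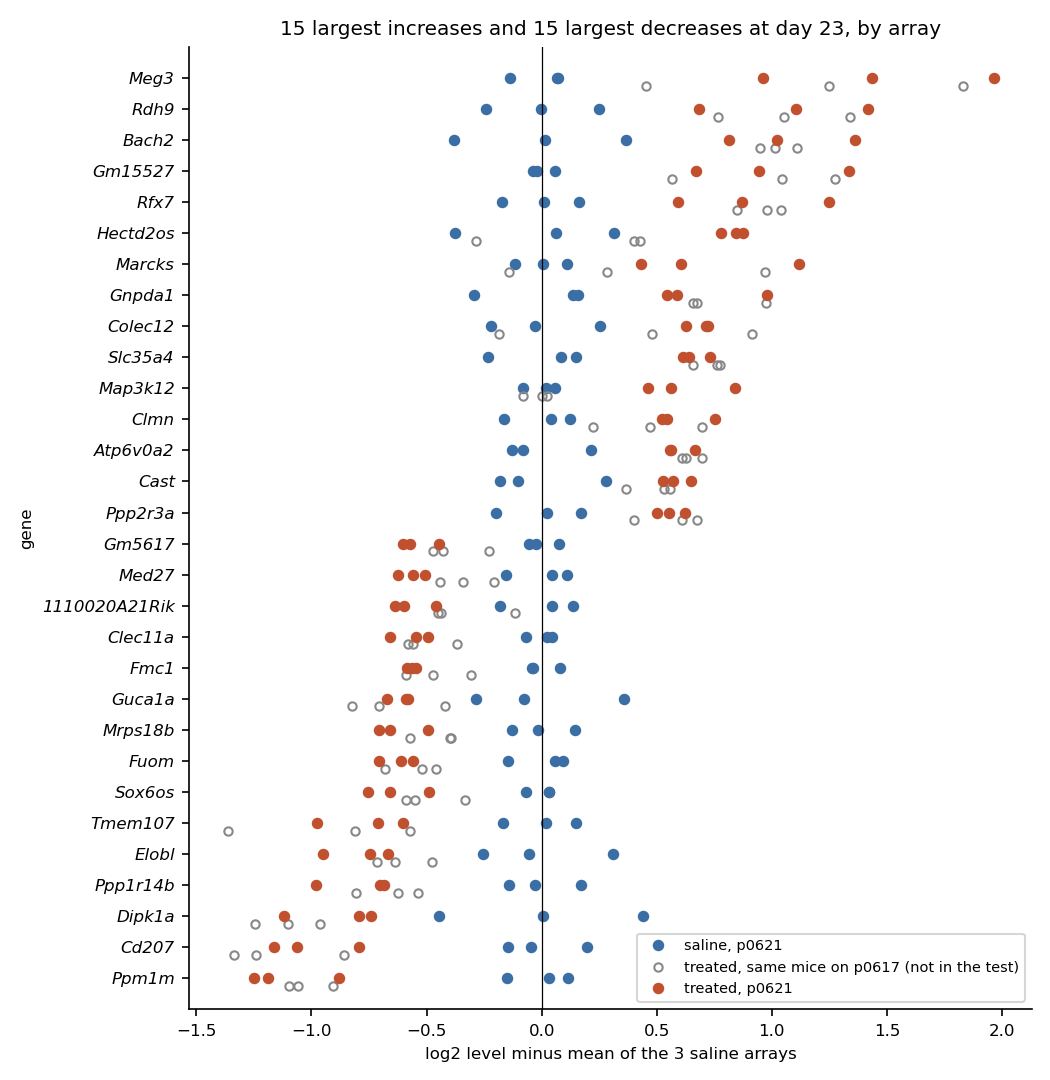
Log2 level of the 15 largest increases and 15 largest decreases on each array, minus the mean of the 3 saline arrays of that gene. Filled red points are the treated livers, blue points the saline livers and open grey points the repeat p0617 arrays of the treated mice. In every gene the red points lie clear of the blue ones, and in Map3k12 the grey points lie on the saline values.

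Meg3, a maternally expressed long noncoding RNA of the imprinted Dlk1-Dio3 region, had the largest increase. Its log2 levels were 8.86, 9.39 and 8.38 in treated and 7.49, 7.49 and 7.28 in saline livers. Mouse 37 was highest and mouse 38 lowest among the treated livers, and all treated values lay above all saline values. The rise was 2.74-fold (log2 1.45, SE 0.27, adjusted p = 0.0338). Its repeat arrays read 8.67, 9.25 and 7.88. Of the 20 measured imprinted genes and nuclear noncoding RNAs Meg3 alone passed, and 7 had treated arrays all above the saline arrays, as did 8.12% of all genes. Xist, the noncoding RNA of X inactivation, lay at 10.58, 11.56 and 12.13 in treated and at 10.27, 10.07 and 9.70 in saline livers, a difference of 1.41 (adjusted p = 0.0737) in mice that were all female. A second Xist probe set of similar level differed by only 0.246 and a dimmer one by 0.945, and neither passed. Rian, a noncoding RNA of the same imprinted region, differed by 0.73 (adjusted p = 0.104), and Dlk1, its paternally expressed neighbour, by -0.13 (adjusted p = 0.726). Rian and Dlk1 were named after their values were seen. The median of the list was 0.15. The other Meg3 probe sets above the median level differed by 0.09 to 1.22, none of which passed over every probe set, and a dim probe set differed by 1.60 and passed there (adjusted p = 0.049).

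Rdh9, a short-chain retinol dehydrogenase, had levels of 11.49, 10.75 and 11.17 in treated and of 10.32, 10.06 and 9.83 in saline livers. The groups did not overlap, and the rise was 2.10-fold (log2 1.07, SE 0.17, adjusted p = 0.0168). It was the only one of 18 retinoid metabolism genes to pass. Rxra, the retinoid X receptor alpha, differed by 0.37 (adjusted p = 0.182), and the list had a median of 0.15 with 5 of 18 genes whose treated arrays were all higher, beside 8.12% of all genes.

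Bach2, Rfx7 and Tead1 encode transcription factors. Bach2, a basic leucine zipper repressor best known in lymphocytes, read 8.42, 8.21 and 8.76 in treated and 7.41, 7.02 and 7.77 in saline livers, a 2.09-fold rise (adjusted p = 0.0393). A further Bach2 probe set differed by 0.82 and another by -0.01, and neither passed. Rfx7, a winged-helix factor, read 7.74, 8.02 and 8.40 against 7.31, 6.97 and 7.16, a 1.87-fold rise (adjusted p = 0.0168). Its other probe set differed by 0.23 without passing. Tead1, a DNA-binding partner of the Hippo pathway coactivators, rose 1.38-fold, and Med13, a subunit of the Mediator kinase module, rose 1.46-fold. Prox1, a transcription factor of hepatocyte and lymphatic identity, read 6.86, 7.31 and 7.88 against 6.32, 6.47 and 6.21. Its difference of 1.02 did not pass (adjusted p = 0.117), and it was the only one of 14 hepatocyte factor genes whose treated arrays were all higher, a share near that of all genes.

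Several increases encode signalling proteins and receptors. Met, the hepatocyte growth factor receptor, read 10.81, 10.77 and 10.59 in treated and 10.31, 10.10 and 10.11 in saline livers, a 1.47-fold rise (log2 0.56, SE 0.09, adjusted p = 0.0168). Marcks, a myristoylated substrate of protein kinase C, rose 1.65-fold, with 8.81, 9.50 and 8.99 against 8.49, 8.39 and 8.27. All 5 other Marcks probe sets above the median level were also higher, by 0.46 to 0.88, and the one at 0.88 passed over every probe set (adjusted p = 0.049). On the repeat arrays of p0617 mouse 38 read 8.24, below the saline values. Ppp2r3a, a regulatory subunit of protein phosphatase 2A, rose 1.47-fold, and Ppp6c, the catalytic subunit of protein phosphatase 6, rose 1.45-fold. A dimmer Ppp6c probe set, still above the median level, differed by -0.24 in the opposite direction without passing. Arhgef7, a guanine nucleotide exchange factor, rose 1.45-fold, and Yes1, a Src family kinase, 1.42-fold. Cast, the calpain inhibitor calpastatin, rose 1.5-fold. Its other probe sets differed by 0.253 and -0.004 without passing.

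Some increases encode enzymes and transporters. Gnpda1, glucosamine-6-phosphate deaminase, read 8.67, 9.06 and 8.63 in treated and 8.22, 7.79 and 8.24 in saline livers, a 1.63-fold rise (adjusted p = 0.0362). Slc35a4, of the nucleotide sugar transporter family, read 6.79, 6.82 and 6.91 against 6.26, 6.33 and 5.94, a 1.58-fold rise (adjusted p = 0.0186). A further Slc35a4 probe set was also higher, by 0.79 (adjusted p = 0.00418 over every probe set). Atp6v0a2, a subunit of the proton pump of endosomes and lysosomes, rose 1.51-fold, Slc38a4, an amino acid transporter, 1.44-fold and Ang, the ribonuclease angiogenin, 1.46-fold. A second Slc38a4 probe set of similar level (12.015 beside 12.141) differed by only 0.014 and did not pass. Akr1d1, the steroid 5-beta-reductase of bile acid synthesis, read 10.25, 10.13 and 10.32 against 9.88, 9.70 and 9.83, a 1.35-fold rise (adjusted p = 0.0478). It was the only one of 19 bile acid and sterol transport genes to pass, in a list with a median of 0.20 and 5 genes whose treated arrays were all higher, beside 8.12% of all genes. Abca1, the cholesterol exporter, differed by 0.34 (adjusted p = 0.099).

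Clmn, the membrane protein calmin, rose 1.52-fold, with 8.30, 8.10 and 8.08 in treated and 7.68, 7.39 and 7.59 in saline livers. Abhd17b, a protein depalmitoylase, rose 1.47-fold, Dcbld2, a membrane receptor, 1.46-fold, Rabgap1l, a GTPase-activating protein for Rab proteins, 1.46-fold and Ankrd13c 1.41-fold. Further Abhd17b probe sets above the median level differed by 0.734, which passed over every probe set (adjusted p = 0.0477), and by 0.009. Those of Dcbld2 (-0.031), Rabgap1l (-0.223 and -0.159) and Ankrd13c (-0.112) differed in the opposite direction without passing. Gmfb, glia maturation factor beta, rose 1.35-fold and Bloc1s6, of a complex that forms lysosome-related organelles, 1.3-fold. Zfp869 and BC005537 rose 1.42-fold and 1.37-fold.

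Part of the increases was not seen on the repeat arrays of the same mice. In 26 of the 34 genes the 3 p0617 arrays of the treated mice also lay above the 3 saline arrays, and in the 36 decreases this held on the lower side for 34 genes. Map3k12, a mixed-lineage kinase, read 8.18, 8.28 and 8.55 in p0621 and 7.63, 7.74 and 7.72 in p0617, beside 7.73, 7.77 and 7.63 in saline livers. Hectd2os, a noncoding transcript, read 8.27, 8.34 and 8.37 in p0621 and 7.92, 7.90 and 7.21 in p0617, beside 7.81, 7.12 and 7.56. In Colec12, a scavenger receptor, mouse 38 read 7.26 in p0621 and 6.45 in p0617, and in Akr1d1 it read 10.32 and 9.56. With the p0617 arrays in place of the p0621 arrays 33 of the 70 calls held. Map3k12, Hectd2os, Marcks, Yes1, Colec12 and Akr1d1 were among those that did not. That setting compares arrays of different sets.

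Ppm1m, a protein phosphatase of the PP2C family, had the largest decrease and the smallest adjusted p. Its levels were 7.03, 6.66 and 6.72 in treated and 7.76, 8.03 and 7.94 in saline livers. All treated values lay below all saline values, and the fall was to 0.464 of the saline level (log2 -1.11, SE 0.14, adjusted p = 0.00491). Its repeat arrays read 7.01, 6.82 and 6.85. Ppp1r14b, an inhibitor of protein phosphatase 1, fell 1.73-fold, with 7.52, 7.80 and 7.82 against 8.36, 8.47 and 8.67 (adjusted p = 0.0362). Dipk1a, a kinase-like protein of the endoplasmic reticulum, fell 1.85-fold, with 7.52, 7.14 and 7.47 against 8.70, 8.27 and 7.81 (adjusted p = 0.0347). The saline values of Dipk1a were widely spread, and the lowest lay close to the highest treated value.

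Tmem107, a protein of the ciliary transition zone, read 6.32, 6.21 and 5.94 in treated and 6.75, 7.07 and 6.94 in saline livers, a 1.7-fold fall (adjusted p = 0.0168). Poc1b, a centriole protein, fell 1.44-fold. Elobl, an elongin B-like gene, fell 1.73-fold, with 6.78, 6.58 and 6.86 against 7.84, 7.27 and 7.47. Clec11a, a secreted lectin, fell 1.48-fold, and Guca1a, a calcium sensor best known in photoreceptors, fell 1.53-fold from a saline spread of 5.67 to 6.31. Sox6os, a noncoding transcript, fell 1.55-fold, with 4.86, 4.76 and 5.03 against 5.45, 5.55 and 5.55. Rab4a, a GTPase of endosome recycling, fell 1.42-fold, Spint2, a serine protease inhibitor, 1.29-fold, Phpt1, a histidine phosphatase, 1.37-fold, Desi1, a desumoylating isopeptidase, 1.33-fold and H2aj, a histone H2A variant, 1.36-fold. The predicted or uncharacterised genes Gm5617, 1110020A21Rik, 2300009A05Rik and 0610012G03Rik fell 1.46-fold, 1.48-fold, 1.4-fold and 1.31-fold.

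Cd207, which encodes langerin, a lectin of Langerhans and some dendritic cells, read 6.42, 6.16 and 6.05 in treated and 7.41, 7.07 and 7.17 in saline livers. The fall was 2.01-fold (log2 -1.01, SE 0.21, adjusted p = 0.0478). It was the only one of 11 measured dendritic cell markers to pass, and 3 of the 11 had treated arrays all below the saline arrays, beside 11.1% of all genes. Itgae, an integrin of dendritic cells and lymphocytes, differed by -0.17 (adjusted p = 0.422), and the median of the list was -0.06. Cd74, the invariant chain of class II antigen presentation, read 8.06, 7.88 and 8.08 against 8.52, 9.03 and 8.72, so the groups did not overlap, and its difference of -0.75 did not pass (adjusted p = 0.226). H2-DMa, of the same pathway, differed by -0.39 (adjusted p = 0.525). In whole liver fewer cells of a type and less RNA per cell cannot be told apart.

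Other immune and stromal markers passed in no list, where 0.385% of all genes passed. None of 16 macrophage, 15 lymphocyte, 8 neutrophil, 14 endothelial, 15 stellate cell, 8 cholangiocyte or 4 red blood cell markers passed the limma test, nor did any of 11 markers of pancreas, muscle and fat. At an unadjusted p under 0.05 the counts were 2, 1, 1, 3, 3, 1, 0 and 2 in that order, beside 13.9% of all genes. The medians were 0.03, -0.04, -0.09, 0.05, 0.19, -0.09, 0.08 and 0.09 in the same order. Csf1r, the macrophage growth factor receptor, differed by -0.44 and Lyz2, the lysozyme of macrophages, by 0.40, in opposite directions (adjusted p = 0.298 and 0.311). Kdr, the endothelial growth factor receptor, differed by 0.34 (adjusted p = 0.0825), Col1a2, a collagen chain of stellate cells, by 0.56 (adjusted p = 0.236), and S100a9, a neutrophil calcium-binding protein, by -0.46 (adjusted p = 0.4). Gzmb, the cytotoxic lymphocyte protease, differed by 0.56 and Cd3e, of the T cell receptor complex, by -0.17 (adjusted p = 0.313 and 0.426). Of 9 hepatocyte markers 0 passed, with a median of 0.05 and 0 at an unadjusted p under 0.05. The treated arrays were all higher in 4 of the 9, Alb among them, beside 8.12% of all genes. That count depended on the scaling of the arrays. It was 1 under quantile normalization, with a median of 0.018, and 2 under median centring, with a median of 0.049.

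Genes of mitochondrial translation, protein import and respiration were among the decreases. Mrps18b, a protein of the small mitochondrial ribosomal subunit, read 9.22, 9.38 and 9.17 in treated and 9.75, 10.02 and 9.86 in saline livers, a 1.54-fold fall (log2 -0.62, SE 0.10, adjusted p = 0.0168). Mrpl20, of the large mitochondrial subunit, fell 1.31-fold, Gadd45gip1, also a mitochondrial ribosome component, 1.38-fold and Pars2, the mitochondrial prolyl-tRNA synthetase, 1.33-fold. Timm8a1 read 9.86, 9.75 and 9.97 against 10.36, 10.33 and 10.38, a 1.41-fold fall, and Timm9 fell 1.28-fold. Both are small Tim chaperones, which guide proteins across the space between the mitochondrial membranes. Uqcr10, a subunit of respiratory complex III, read 11.31, 11.26 and 11.33 against 11.69, 11.80 and 11.76, a 1.37-fold fall (adjusted p = 0.0256). Fmc1, an assembly factor of the mitochondrial ATP synthase, read 8.70, 8.72 and 8.74 against 9.24, 9.25 and 9.37, a 1.48-fold fall (adjusted p = 0.0168).

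The families of these genes lay low as a whole by small amounts. Among all genes the treated arrays were all lower than the saline arrays in 11.1% and all higher in 8.12%. In the list of 24 oxidative phosphorylation subunits 0 passed and 13 had an unadjusted p under 0.05, all of them lower. In 16 of the 24 (66.7%) the treated arrays were all lower, and the median was -0.18 beside -0.02 for all genes. Ndufa4 of the respiratory chain differed by -0.38 and Atp5o, of the ATP synthase stalk, by -0.32, each with an adjusted p of 0.0719. The next families were taken by gene symbol after the values were seen. All treated arrays were lower in 30 of 47 Mrpl genes (median -0.19), 15 of 29 Mrps genes (median -0.19), 10 of 15 Timm genes (median -0.24), 18 of 35 Nduf genes of complex I (median -0.15) and 6 of 8 Uqcr genes of complex III (median -0.21). In the Cox genes of complex IV it was 7 of 17 (median -0.11) and in the Atp5 genes 9 of 17 (median -0.11). Those medians stayed negative under quantile normalization of the arrays. Median centring moves the difference of every gene by the same small amount (all genes from -0.02 to -0.025), so it could not change their sign. Low medians were also present at the earlier days. At days 3 and 9 the oxidative phosphorylation list had -0.21 and -0.134, and all genes had 0.012 and -0.02. Mrpl genes had -0.182 and -0.057, Mrps -0.226 and -0.085, Timm -0.173 and -0.102 and Nduf -0.137 and -0.086. Uqcr genes had -0.215 and -0.099, Cox -0.135 and -0.103 and Atp5 -0.143 and -0.089.

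Cytosolic ribosomal proteins were also lower by small amounts. Of 16 in the list 0 passed and 4 had an unadjusted p under 0.05, all lower. The treated arrays were all lower in 11 of the 16 (68.8%), with a median of -0.11. By symbol, after the values were seen, it was 14 of 26 Rpl genes (53.8%, median -0.123) and 8 of 19 Rps genes (42.1%, median -0.082). At days 3 and 9 the list had medians of -0.077 and -0.088. Rps19 differed by -0.25 (adjusted p = 0.152) and Rpl11 by -0.16 (adjusted p = 0.261). In 40 proteasome subunits, taken by symbol for comparison, the median was 0.00, and the treated arrays were all higher in 9 and all lower in 2, beside 8.12% and 11.1% of all genes. Low medians were not particular to mitochondrial and ribosomal proteins. All treated arrays were lower in 6 of 8 nucleolar Nop genes (median -0.205) and 5 of 11 Polr2 genes of RNA polymerase II (median -0.151). In 15 Ppp2r genes of protein phosphatase 2A the median was 0.063, with 2 all higher and 2 all lower. The treated livers had medians of -0.18, -0.18 and -0.17 for the oxidative phosphorylation list and of -0.12, -0.10 and -0.11 for the ribosomal list, relative to the saline mean of each gene. The saline livers had -0.06, 0.01 and 0.03, and -0.02, 0.03 and -0.03. The 3 treated mice were therefore alike and each lay below each saline mouse.

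**Figure D2:**
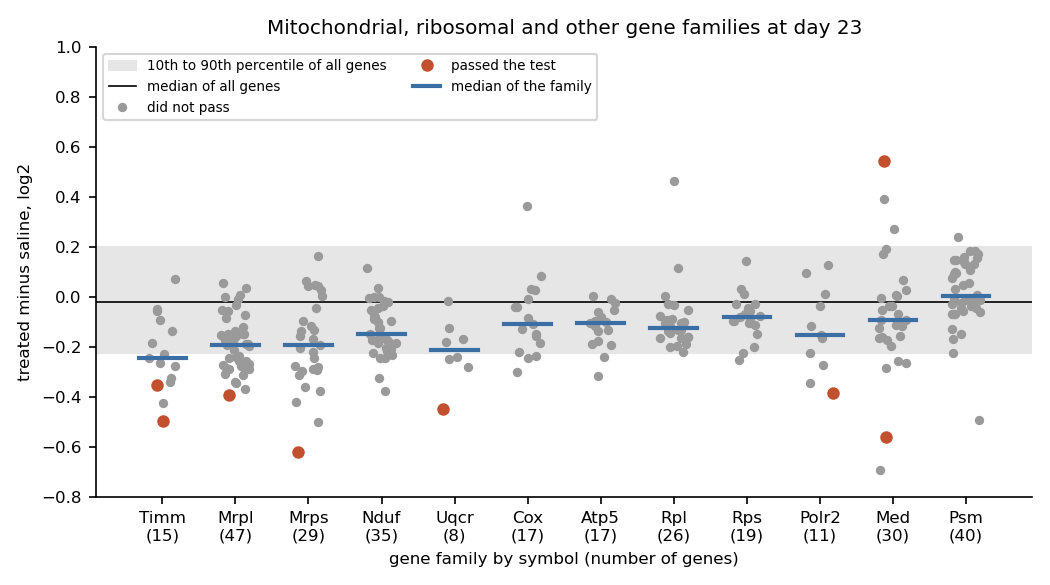
Treated minus saline log2 difference of each gene of 12 families at day 23, with the family's median as a blue bar and the number of genes in brackets. The grey band spans the 10th to the 90th percentile of all genes and the black line marks their median. Timm, Mrpl and Mrps genes sit below the line of all genes by about 0.2, and proteasome (Psm) genes lie around it.

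Further decreases belong to RNA and protein production. Polr2i, a subunit of RNA polymerase II, fell 1.31-fold, Nop10, of the particles that modify ribosomal RNA, 1.29-fold and Wdr74, a ribosome biogenesis factor, 1.44-fold. Txnl4a, of the spliceosome, fell 1.28-fold and Srp68, of the signal recognition particle, 1.33-fold. Med27, a Mediator subunit, fell 1.48-fold, with 5.85, 5.80 and 5.74 against 6.21, 6.41 and 6.47, while Med13 rose as given above. Of 30 Mediator genes those 2 passed, and the median was -0.09. Metabolic enzymes that fell were Fuom, a fucose mutarotase (1.54-fold), Gmps, of guanine nucleotide synthesis (1.39-fold) and Gsto1, a glutathione transferase (1.37-fold). A further, dimmer Gmps probe set differed by 0.58 in the opposite direction without passing. A second Gsto1 probe set of similar level (10.057 beside 10.414) differed by only -0.162 and did not pass.

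Of the 10 genes that microRNA-122 is best known to repress in mouse liver, Ccng1 passed at day 23 and 9 did not. Ccng1, cyclin G1, read 9.03, 8.60 and 8.73 in treated and 8.30, 8.26 and 8.29 in saline livers, a 1.42-fold rise (log2 0.50, SE 0.10, adjusted p = 0.0423). Mouse 36 was highest, and the saline livers lay close together. The other Ccng1 probe sets differed by 0.11 and 0.40 without passing. Bckdk, an inhibitory kinase of the branched-chain ketoacid dehydrogenase, read 7.27, 7.55 and 7.04 against 6.80, 6.56 and 6.87. Hjv, the iron regulator hemojuvelin, read 9.50, 9.72 and 9.26 against 9.03, 8.86 and 8.89. Aldoa, the glycolytic aldolase A, read 9.40, 9.63 and 9.44 against 9.17, 9.18 and 9.11. In these 3 genes the groups did not overlap and mouse 37 was highest.

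The differences of Bckdk, Hjv and Aldoa were 0.54, 0.57 and 0.34, and their adjusted p-values of 0.0509, 0.0555 and 0.0719 missed the threshold. A second Hjv probe set differed by 0.74 and passed over every probe set (adjusted p = 0.049). Ndrg3, of the NDRG family, differed by 0.38 (adjusted p = 0.262). The amino acid transporter Slc7a1 differed by 0.11, the transcobalamin receptor Cd320 by -0.10, the muscle-type glycogen synthase Gys1 by -0.09, the collagen prolyl hydroxylase P4ha1 by -0.20 and the cargo receptor Tmed3 by -0.29 (adjusted p from 0.459 to 0.734). The treated arrays were all higher in 4 of the 10 and all lower in 1, Gys1, beside 8.12% and 11.1% of all genes, and the median was 0.22. Of 23 further targets from work on cancer, fibrosis and metabolism 0 passed and 7 had an unadjusted p under 0.05. Cers6, a ceramide synthase, differed by 0.71 (adjusted p = 0.0555), and Trib1, a pseudokinase that controls hepatic lipogenesis, by -0.46 (adjusted p = 0.0724). That list had a median of 0.04, and its treated arrays were all higher in 7 genes and all lower in 3, beside the same 8.12% and 11.1% of all genes.

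Set beside the earlier days, the targets differed less at day 23, but no change in their effect passed its own test. Bckdk differed by 1.15 at day 3, 1.06 at day 9 and 0.54 at day 23. The day 23 effect minus the day 3 effect was -0.61 (SE 0.17, adjusted p = 0.175). For Aldoa the 3 differences were 0.82, 0.77 and 0.34, and day 23 minus day 3 was -0.48 (SE 0.12, adjusted p = 0.12). Hjv gave 1.20, 0.66 and 0.57, and Ccng1 gave 0.97, 0.52 and 0.50. Tmed3 differed by 0.68 at day 9 and by -0.29 at day 23, a change of -0.97 (SE 0.23, adjusted p = 0.313). Days 3 and 9 were hybridised in p0617 and day 23 in p0621, so day and array set cannot be told apart in any change of effect.

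**Figure D3:**
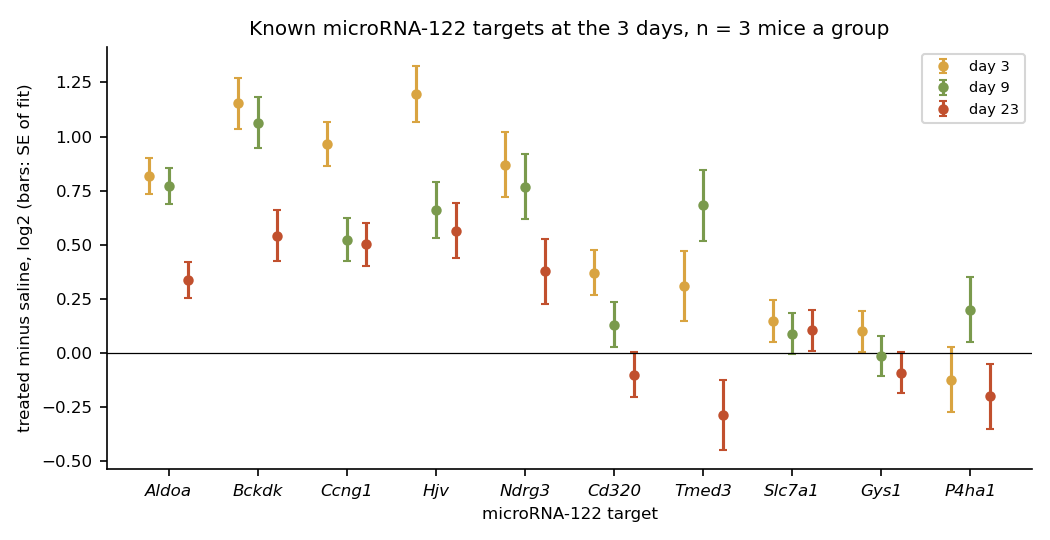
Treated minus saline log2 difference of 10 known microRNA-122 targets at days 3, 9 and 23, with the SE of the fit as bars and 3 mice in each group. At day 23 Aldoa and Bckdk sit at 0.34 and 0.54 against 0.82 and 1.15 at day 3, and Gys1, Cd320, P4ha1 and Tmed3 lie below 0.

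Interferon response genes were higher by amounts that did not pass for single genes. Of 26 measured 0 passed the limma test, 12 had an unadjusted p under 0.05, all higher, and in 11 (42.3%) the treated arrays were all higher, beside 8.12% of all genes. The median was 0.30 at day 23, after 0.86 at day 3 and 0.41 at day 9. Ifit3, an antiviral effector, read 8.37, 8.04 and 8.10 in treated and 7.07, 7.43 and 7.72 in saline livers, a difference of 0.76 (adjusted p = 0.0617). Rsad2, the antiviral enzyme viperin, read 8.10, 8.26 and 8.56 against 6.82, 7.43 and 7.82, a difference of 0.95 (adjusted p = 0.0764). Ifit1, named after its values were seen, read 8.44, 7.76 and 8.34 against 6.28, 7.09 and 7.59, a difference of 1.19 (adjusted p = 0.14). In all 3 genes the groups did not overlap, saline mouse 31 was lowest and saline mouse 33 lay nearest to the treated livers.

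For Ifit3 the fall in effect from 2.148 at day 3 to 0.762 at day 23 passed the test of the change (-1.39, SE 0.25, adjusted p = 0.021), a call that ended without treated replicate 2 or 3 or control replicate 2 or 3. Markers of macrophages and lymphocytes, given above, had medians of 0.03 and -0.04 in the same livers, and antigen presentation genes had a median of -0.12 with 0 of 15 passing. The part of these cells in the interferon result was not tested.

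**Figure D4:**
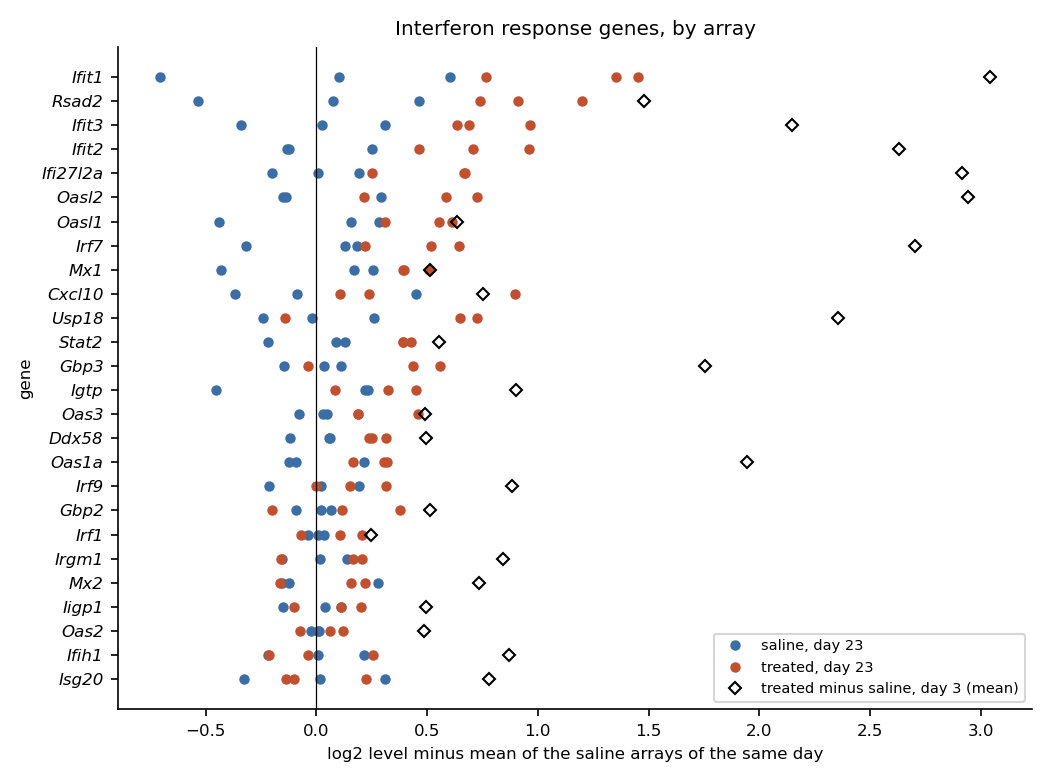
Log2 level of 26 interferon response genes on each day 23 array minus the saline mean, with treated livers in red and saline livers in blue, and the mean difference at day 3 as open diamonds. The red points of Ifit1, Rsad2 and Ifit3 lie above all their blue points, and most diamonds lie further right than the red points.

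The promoters of these genes are shown because many of them carry the interferon-stimulated response element, the site through which interferon signals reach such genes. It was searched as GAAA, any 2 bases and GAAA, on both strands of the 250 bases before the RefSeq start of each gene. It was present in 11 of the 20 interferon list genes with a promoter in the table (55.0%) and in 453 of 14452 tested genes (3.13%). Capitals mark the element, here read on the opposite strand. The sequences are from RefSeq, build GRCm38.p6, run 5' to 3' on the strand of the gene and end at the base before its start.
Ifit1 (chr19:34640739-34640888, plus strand): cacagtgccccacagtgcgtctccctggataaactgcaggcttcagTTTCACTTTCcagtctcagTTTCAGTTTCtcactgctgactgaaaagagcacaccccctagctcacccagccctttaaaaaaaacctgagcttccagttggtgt
Ifit3 (chr19:34583349-34583528, plus strand): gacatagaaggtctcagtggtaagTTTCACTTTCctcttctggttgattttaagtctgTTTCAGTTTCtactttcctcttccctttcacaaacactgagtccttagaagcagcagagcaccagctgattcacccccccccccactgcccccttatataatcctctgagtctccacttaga
Rsad2 (chr12:26456453-26456602, minus strand): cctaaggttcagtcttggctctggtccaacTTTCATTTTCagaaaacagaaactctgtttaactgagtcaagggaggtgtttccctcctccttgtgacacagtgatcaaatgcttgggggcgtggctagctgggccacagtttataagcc

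Ifit1 and Ifit3 each hold 2 copies and Rsad2 holds 1. They begin 104 and 85 bases before the start in Ifit1 and 120 bases before it in Rsad2. None of the 25 increased genes with a promoter in the table held the element, and 2 of 30 decreased genes did. Other motifs searched in the same way were the ETS site CCGGAA, the E-box CACGTG and the NRF1 site, written as GCGCA followed by TGCGC. The ETS site was present in 5 of 25 increased genes (20.0%), 3 of 30 decreased genes and 19.6% of tested genes. The E-box was present in 4 of 25 (16.0%), 3 of 30 and 8.73%, and the NRF1 site in 0 of 25, 0 of 30 and 1.43%. These matches describe letters in this window and show no binding.

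The cholesterol, fatty acid, apolipoprotein, sugar and amino acid lists gave 0 calls at day 23. Of all genes 0.385% passed, so 0 in lists of this size is near that share. Of 18 measured cholesterol synthesis genes the median was 0.05, with 1 at an unadjusted p under 0.05. Insig1, which retains the SREBP complex in the endoplasmic reticulum, read 10.45, 10.14 and 10.02 in treated and 9.79, 9.69 and 9.40 in saline livers (0.58, adjusted p = 0.0767). On the repeat arrays of the same mice it read 8.90, 9.17 and 8.40, below the saline values, so its direction depended on the array set. The 23 fatty acid synthesis genes had a median of -0.03, the 22 fatty acid oxidation genes -0.02, the 14 apolipoprotein genes -0.03, the 17 sugar metabolism genes -0.02 and the 18 urea cycle and amino acid genes 0.13. Their counts at an unadjusted p under 0.05 were 2, 1, 1, 1 and 3 in that order, beside 13.9% of all genes. Apob, the structural protein of very low density lipoprotein, read 13.24, 13.69 and 13.47 against 12.82, 13.03 and 12.60, a difference of 0.65 (adjusted p = 0.096). Vnn1, a pantetheinase and PPARA target, read 7.65, 5.14 and 7.62 against 8.57, 8.70 and 7.88, with mouse 37 far below the rest and a difference of -1.58 (adjusted p = 0.239). Fads2, a fatty acid desaturase, differed by 0.36 (adjusted p = 0.344), and Ppm1k, the phosphatase that activates branched-chain ketoacid breakdown, by 0.51 (adjusted p = 0.0692).

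Drug metabolism and hormone-controlled genes likewise gave 0 calls, again near the 0.385% of all genes. The counts at an unadjusted p under 0.05 below stand beside 13.9% of all genes. Cyp1a2, a hepatic cytochrome P450, read 12.69, 12.79 and 12.48 in treated and 12.38, 11.66 and 11.87 in saline livers, a difference of 0.69 that fell just short (adjusted p = 0.0509). Cyp2c38, another P450, differed by -1.001 (adjusted p = 0.104). The 21 drug-type cytochromes had a median of 0.09 and 3 at an unadjusted p under 0.05, and the 17 conjugation enzymes -0.05 and 3, with Gsta4, a glutathione transferase, at -0.43 (adjusted p = 0.0867). Hsd3b5, a male-biased steroid dehydrogenase, read 6.92, 8.30 and 5.45 against 9.57, 8.65 and 8.26 (adjusted p = 0.226), and Ghr, the growth hormone receptor, differed by 0.32 (adjusted p = 0.0696). The 13 growth hormone genes had a median of -0.10 and 2 at an unadjusted p under 0.05. The 13 iron genes had -0.09 and 3, the 19 clock genes 0.05 and 2, the 19 p53 response genes 0.08 and 6, the 25 cell cycle genes 0.18 and 4, and the 22 endoplasmic reticulum genes -0.09 and 1. Rrm2b, the p53-induced ribonucleotide reductase subunit, was not in that list and rose 1.44-fold. Cdk1, the mitotic kinase, read 6.43, 6.64 and 6.22 in treated and 5.41, 5.87 and 6.08 in saline livers, and Top2a, the topoisomerase of dividing cells, read 5.04, 5.46 and 5.05 against 4.14, 4.06 and 5.02. Both had treated arrays all higher without passing (adjusted p = 0.164 and 0.174). The clock genes Per1 and Arntl differed by -0.51 and -0.55 (adjusted p = 0.119 and 0.162), and Dnajb9, an endoplasmic reticulum chaperone, by -0.51 (adjusted p = 0.245).

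Among 25 acute phase genes the median was 0.00 with 2 at an unadjusted p under 0.05, among 18 complement genes 0.07 with 1, among 16 microRNA machinery genes 0.07 with 2, among 14 hepatocyte factor genes 0.03 with 1, and among 15 antigen presentation genes 1 had an unadjusted p under 0.05. Of all genes 13.9% had such a p. Saa4, the constitutive serum amyloid A, differed by 0.31 (adjusted p = 0.199), and C9, of the membrane attack complex, by -0.69 (adjusted p = 0.17). Drosha, which cuts primary microRNAs, differed by 0.32 (adjusted p = 0.121).

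The calls of day 23 were compared with those of the earlier days, each of which had its own treated and saline arrays. The days were tested in 1 fit that shares each gene's spread. Their calls were therefore not independent, and a gene of small spread passes more easily at every day. The labels of days 3 and 9 share the mouse numbers 1, 2 and 3 among saline and 8 among treated mice. They do not say whether a number is reused. At day 9, 511 genes passed (2.81%), 348 higher (1.91%) and 163 lower (0.896%), and at day 3, 821 passed (4.51%), 479 higher (2.63%) and 342 lower (1.88%). Of the 34 increases of day 23, 20 had also risen at day 9 (58.8%) and 14 at day 3 (41.2%), 14 at both and 14 at neither. Of the 36 decreases 15 had fallen at day 9 (41.7%) and 14 at day 3 (38.9%), 7 at both and 14 at neither. Rdh9, Slc35a4, Atp6v0a2, Met, Ang, Gnpda1 and Ccng1 rose at both earlier days. Meg3, Bach2, Rfx7 and Tead1 rose at day 9 and differed at day 3 by 0.33, 0.05, 0.31 and 0.10 without passing. Ppm1m fell by 1.09 at day 9 and differed by -0.39 at day 3.

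Read in the other direction, most early calls kept their sign. Of the 479 increases and 342 decreases of day 3, 379 (79.1%) and 297 (86.8%) differed in the same direction at day 23. Of all 18193 genes 8237 were higher and 9956 lower at day 23 in treated liver. Of the 129 genes called higher at both day 3 and day 9, 125 were also higher at day 23 and 14 passed there. Their median was 0.30 at day 23 after 0.60 at day 9. Of the 39 called lower at both, 38 were also lower and 7 passed, with a median of -0.28 after -0.49 at day 9. Both sets were chosen by their values at the earlier days, which favours larger differences there.

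**Figure D5:**
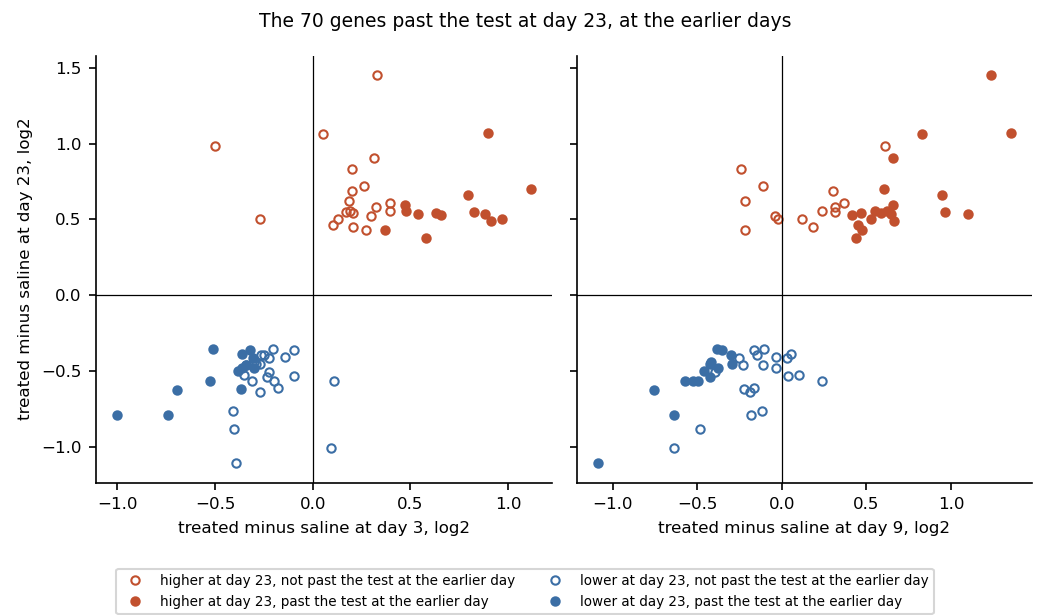
Treated minus saline log2 difference at day 23 of the 70 genes past the test, against the same at day 3 (left) and day 9 (right). Filled points also passed at the earlier day and open points did not. Most points lie in the quadrants of equal direction, with 32 of the 34 increases and 34 of the 36 decreases so at day 3.

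Tested directly, few changes in effect between days passed. A change in effect had a larger SE than a difference within a day. At an unadjusted p under 0.05 there were 1581 genes for day 23 minus day 9 and 1866 for day 23 minus day 3. From day 9 to day 23 the change passed in 1 gene (0.0055%), and from day 3 to day 23 in 55 genes (0.302%), 11 upward and 44 downward. Ranbp3l, a Ran-binding export protein, differed by -1.32 at day 9 and by -0.11 at day 23, where treated livers read 5.22, 4.97 and 5.35 against 5.35, 5.50 and 5.03. Rai14, an actin-binding ankyrin-repeat protein, differed by -3.90 at day 3 and by -0.33 at day 23, with 8.17, 7.88 and 8.26 against 8.59, 8.41 and 8.31 (adjusted p = 0.377). The serum amyloid A genes Saa1, Saa2 and Saa3, which encode acute phase proteins, differed by 2.92, 4.83 and 4.31 at day 3 and by -0.39, -0.47 and 0.16 at day 23. Saa2 read 7.61, 8.26 and 8.39 in treated and 8.63, 8.68 and 8.35 in saline livers, so the groups overlapped. Zfp51, a zinc finger gene, differed by -1.09 at day 3 and by 0.49 at day 23, and Gm15527, a predicted gene, by -0.50 and 0.99. Gm15527 read 5.34, 5.61 and 6.004 against 4.65, 4.63 and 4.72 and was 1.98-fold higher at day 23 (adjusted p = 0.0338).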

How the data were processed

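Liver total RNA was profiled on Affymetrix mouse arrays. The authors deposited log2 expression values of 45101 probe sets, made with RMA per the submitters' processing notes. Which arrays were normalized together, and with which version, is not given in the sources used here. RMA shrinks differences of dim probe sets. Of the probe sets 34945 had 1 gene symbol, 932 several and 9160 none in the platform annotation. For each of 18193 genes the probe set of highest average level was kept, over 18 arrays, 1 per mouse of each day. The p0617 arrays of the day 23 mice stayed out.

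Group means were fitted with limma (lmFit and eBayes), with a spread shared by 6 groups (12 residual and 4.85 prior degrees of freedom). Two-sided p-values were corrected over the 18193 genes (Benjamini-Hochberg) with a threshold of 0.05. Genes were called all higher or all lower where the 3 treated and 3 saline arrays did not overlap. Changes in effect were contrasts of the same fit. The 3 arrays a group limit the precision of every value. The rule for named genes takes the 15 largest increases and decreases past the threshold without overlap, 10 known targets, up to 4 called members of each of 37 lists, or else members of smallest p to make 2, and 3 genes each way for a change in effect. Other genes past the threshold were added to describe roles. Members and lists were chosen with earlier results of these data known, and the symbol families after values were seen. Of 692 list entries 617 were measured.

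Alternatives were the fit on 6 arrays, all 21 arrays, the p0617 arrays, quantile normalization, median centring, filters at the median and 75th percentile of level, other uses of probe sets, a trend with a robust prior, a replicate block, a 1.5-fold minimum, array weights, the actin ratio as a covariate, and each array left out. The fit was tested on simulated data. R 4.3.3, limma 3.58.1, the data.table package (version 1.17.8), Python 3.11.15, pandas 2.3.3 and matplotlib 3.10.9 were used.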

Additional observations from a re-analysis of the deposited data

Results flagged for a closer look

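Effects that differed between days by a limma contrast of contrasts are collected here, as day 23 minus the earlier day on the log2 scale. Ranbp3l changed by 1.21 from day 9 (adjusted p = 0.0495), a call that ended without treated replicate 1 or 3 or control replicate 1 or 3. From day 3 the changes were 3.57 for Rai14 (adjusted p = 3.74e-07), 1.58 for Zfp51 (adjusted p = 0.00955) and 1.49 for Gm15527 (adjusted p = 0.014). They were -5.3 for Saa2 (adjusted p = 0.000473), -4.15 for Saa3 (adjusted p = 0.00874), -3.32 for Saa1 (adjusted p = 0.00955) and -1.39 for Ifit3 (adjusted p = 0.021). The call of Ifit3 ended without treated replicate 2 or 3 or control replicate 2 or 3. Each of these changes also crosses from array set p0617 to p0621, which cannot be told apart from the day.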

How the results depend on the processing

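The 70 calls of day 23 became 0 in a fit on the 6 arrays, 0 with a replicate block (2375 genes at an unadjusted p under 0.05) and 0 for changes of at least 1.5-fold (24 at an unadjusted p under 0.05). They became 43 with median centring, 137 with all 21 arrays, 179 with the p0617 arrays of the treated mice, 139 with quantile normalization, 340 and 380 with genes above the median and the 75th percentile of level, 210 with a trend and robust prior and 136 with array weights. Treated and saline mice of the same replicate number did not pair (correlations of their deviations 0.026, 0.043 and 0.019). The block therefore rests on a shared replicate number only. Leaving out 1 array gave 3 to 72. All 70 genes were called under quantile normalization, the trend and the weights, and 56 with the actin ratio as a covariate. The 1 change from day 9 became 0 with median centring, both level filters, the mean of probe sets, the replicate block or the actin ratio, and was 0 to 1 without 1 array. The 55 changes from day 3 became 30 above the 75th percentile, 29 with the replicate block and 5 with the actin ratio, and 28 to 45 without 1 array. With the p0617 arrays the day 23 differences turned to -0.018 for Map3k12, 0.015 for Gys1, -0.8 for Insig1, -0.009 for Pdgfrb and 0.314 for Ranbp3l. With the mean of probe sets they turned to 0.028 for Slc4a1 and 0.011 for Gmps. The cause was not tested. Differences of dim probe sets are limited by RMA and by 3 arrays a group.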
